A study of Rattus norvegicus with 8 samples.

Results

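The genes described here encode the feeding peptides of the arcuate nucleus of the hypothalamus and their receptors: Pomc, Cartpt, Agrp, Npy, Mc3r, Mc4r, Lepr, Npy1r, Npy5r and Ghsr. They were chosen by gene name on the array's non-control spots, which gave 10 genes at 13 probes and 31 spots. The arrays held 30367 unique probes, and 14603 genes had a probe that passed the filter on dim signals, all 10 among them. The study compared hypothalami of 4 female Sprague Dawley rats in estrus with those of 4 male rats of the same strain, all 3 to 4 months old, untreated, housed singly with 14 h of light and 10 h of dark and free access to chow and water. Female 1 and male 1 shared array 1, and so on to array 4. All 4 arrays were on 1 slide. Females carried the green dye Cy3 on arrays 1 and 3 and the red dye Cy5 on arrays 2 and 4, with the male in the other dye. All females were in estrus, so sex and cycle stage cannot be told apart.

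The arcuate nucleus lies at the base of the hypothalamus and holds opposing groups of neurons that set food intake. Neurons with Pomc, whose product is cut to the melanocortin alpha-MSH, and Cartpt reduce feeding. Neurons with Agrp, which blocks melanocortin receptors, and Npy stimulate it. Leptin, acting on Lepr, raises Pomc and lowers Agrp and Npy, while ghrelin acts through Ghsr on the Agrp and Npy neurons.

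The 60-base probes of Pomc, Agrp, Npy and Mc3r whose sequence lies in coding sequence are shown because the results below rest on what these spots capture. They are written 5′ to 3′ on the gene's strand, from the array annotation on the rn4 build, and capitals mark the stop codon where the probe holds it.
Pomc probe, chr6:26937625-26937684, plus strand: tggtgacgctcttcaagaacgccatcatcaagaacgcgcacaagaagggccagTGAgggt
Agrp probe, chr19:35386739-35386798, minus strand: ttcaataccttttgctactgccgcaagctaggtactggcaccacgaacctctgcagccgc
Npy probe 2, chr4:78043176-78043235, plus strand: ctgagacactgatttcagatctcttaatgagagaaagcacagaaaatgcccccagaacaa
Mc3r probe, chr3:163159796-163159855, plus strand: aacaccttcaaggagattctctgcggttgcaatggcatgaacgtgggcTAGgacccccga
The probes of Pomc and Mc3r run over the stop codon into the bases after it. The Agrp probe and the second Npy probe hold no stop codon.

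The upstream sequences of Pomc, Cartpt and Agrp are shown because these 3 genes were low together in 1 sample. Each is the 250 bases before the gene's start in RefSeq on the GRCr8 build, 5′ to 3′ on the gene's strand, with matches to the searched motifs in capitals.
Pomc, chr6:32659103-32659352, plus strand: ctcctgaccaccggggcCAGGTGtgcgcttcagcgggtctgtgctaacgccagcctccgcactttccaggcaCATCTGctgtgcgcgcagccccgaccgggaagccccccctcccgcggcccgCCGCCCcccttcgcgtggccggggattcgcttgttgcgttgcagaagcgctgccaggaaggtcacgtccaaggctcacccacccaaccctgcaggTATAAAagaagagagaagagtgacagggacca
Cartpt, chr2:32991236-32991485, minus strand: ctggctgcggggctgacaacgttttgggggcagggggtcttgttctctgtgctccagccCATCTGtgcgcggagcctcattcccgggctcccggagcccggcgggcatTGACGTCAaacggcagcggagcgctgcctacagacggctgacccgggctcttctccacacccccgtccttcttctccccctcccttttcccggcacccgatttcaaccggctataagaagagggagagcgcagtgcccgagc
Agrp, chr19:50359498-50359747, minus strand: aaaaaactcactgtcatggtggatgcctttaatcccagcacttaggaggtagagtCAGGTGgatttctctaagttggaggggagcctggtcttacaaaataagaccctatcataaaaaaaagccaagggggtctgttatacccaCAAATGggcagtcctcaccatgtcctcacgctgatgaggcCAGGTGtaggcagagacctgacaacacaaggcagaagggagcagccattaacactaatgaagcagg
All 10 genes matched a RefSeq promoter, and the motifs were searched on both strands of the same window in 33469 promoters. The TATA box TATAAA was found in Pomc, at -32, and in 12.9% of all promoters. The cAMP response element TGACGTCA was found in Cartpt, at -142, and in 1.59% of all promoters. The E-box CANNTG was found in Pomc, Cartpt, Agrp, Lepr and Npy1r and in 65.5% of all promoters, and the GC box GGGCGG in Pomc and Npy and in 30.5%. The STAT site TTCNNNGAA was found in 0 of the 10 genes and in 7.67% of all promoters. These matches are descriptions of letters in a window.

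Male replicate 2 stood apart from the other 7 samples before any comparison of the sexes. The summed linear level of 11 measured markers of other hypothalamic nuclei was 14390 in male replicate 2, against 206000 to 277600 in the females and 203600 to 237500 in the other males, and 8 of the 11 were lower there than in all other samples by over 1 on the log2 scale. The sum mostly follows its brightest genes, vasopressin (Avp) and melanin-concentrating hormone (Pmch). In male replicate 2, Avp was lower than in each of the other 7 samples by at least 4.13 on the log2 scale, and Pmch by at least 4.11. Vip of the same list was not lowest in male replicate 2, at 10.539 against 10.306 to 11.015 in the other samples. The summed level of 13 measured markers of cortex, hippocampus and striatum was 85410 in male replicate 2, against 27630 to 37740 in the females and 27570 to 32770 in the other males, and 8 of the 13 were higher there than in all other samples by over 1. Neurod6, a transcription factor of cortical pyramidal neurons, had a log2 level of 13.90 in male replicate 2 and 11.94 in female replicate 2, against 7.25 to 9.04 in the other 6 samples. These 2 samples shared array 2. Rgs9 of the cortex, hippocampus and striatum list was instead lowest in male replicate 2, at 10.565 against 11.253 to 12.222 elsewhere. The 7 measured markers of other arcuate neurons summed to 13650 in male replicate 2, against 24620 to 32210 in the females and 24820 to 28680 in the other males. The part of these marker levels in the results below was not tested.

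The scanner software called 12 of the 13 probes well above background in all 8 samples. The exception was Lepr probe 2, called so in 7 of 8. The call differs from signal over local background, which in male replicate 2 was -3.84 units at Lepr probe 1 and 1.44 at Mc3r. Cy3 samples were brighter, with a median of 502 to 530 units over local background against 148 to 272 units for Cy5, and saturation affected 0 spots. Levels below are log2 intensities after normalization of both channels across arrays, and can be compared between samples but not between probes. With 4 arrays, the number of arrays limits the precision.

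Pomc encodes the melanocortin precursor. Its levels in females 1 to 4 were 14.25, 13.68, 13.96 and 13.74, and in males 1 to 4 they were 13.80, 11.04, 14.02 and 14.25. Male replicate 2 was far below the other 7 samples, and the other 3 males lay in the range of the females. The level in male replicate 2 was 9.24-fold below that in male replicate 4, which carried the same dye. The female over male log2 ratios on arrays 1 to 4 were 0.46, 2.65, -0.06 and -0.51, so females were higher on arrays 1 and 2 and lower on arrays 3 and 4. The limma fit with a sex and a dye term gave a log2 ratio of 0.64 ± 0.55 (SE, 4 arrays, adjusted p = 0.647). Without replicate 2 it was -0.15. Array 4 was then the single array with the female in Cy5, and the fit cannot gauge the spread of a single array. In bulk tissue, fewer cells of a type and less RNA per cell cannot be told apart.

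Cartpt encodes the CART peptides, made in the arcuate nucleus with Pomc and also in other hypothalamic nuclei. Females 1 to 4 had levels of 13.44, 13.55, 13.02 and 13.26, and males 1 to 4 had 13.56, 8.98, 13.48 and 13.55. The other 3 males lay within 0.09 of each other, while male replicate 2 was the lowest of all samples, 23.9-fold below male replicate 4. The log2 ratios on arrays 1 to 4 were -0.12, 4.57, -0.46 and -0.29, so array 2 alone had the female higher. The probe is printed at 10 places on each array. Its single spots gave log2 ratios of 4.35 to 4.80 on array 2 and between -0.73 and 0.19 on the other arrays, so the array 2 value was shared by all spots used. The limma fit gave 0.93 ± 0.84 (SE, adjusted p = 0.656). Without replicate 2 it was -0.29, with the male higher on all 3 remaining arrays.

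Agrp encodes the inverse agonist of the melanocortin receptors. Levels were 11.93, 11.60, 11.48 and 10.81 in females 1 to 4 and 11.40, 8.69, 11.44 and 11.44 in males 1 to 4. Male replicate 2 was again the lowest, 6.70-fold below male replicate 4. The other 3 males lay within 0.05 of each other (SD 0.02), whereas the females had an SD of 0.47. The log2 ratios on arrays 1 to 4 were 0.53, 2.91, 0.04 and -0.63. The limma fit gave 0.71 ± 0.62 (SE, adjusted p = 0.646), and its estimate was -0.17 without replicate 2.

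Npy encodes neuropeptide Y, which Agrp neurons also make, as do neurons of the cortex and hippocampus. At probe 1, the brighter of its 2 probes, the levels were 13.51, 14.18, 13.53 and 13.68 in females 1 to 4 and 14.00, 13.75, 13.95 and 13.33 in males 1 to 4. Male replicate 2 lay within the range of the other males, and the sexes overlapped. Among the samples in Cy3 it was the highest, at 13.75 against 13.33 to 13.53. The log2 ratios on arrays 1 to 4 were -0.49, 0.42, -0.43 and 0.35, so the sample in Cy5 was the higher on every array. The dye term of the limma fit was 0.42 ± 0.06 on the log2 scale (SE, adjusted p = 0.0316), and 12.7% of all probes passed the same test. The sex term was -0.04 ± 0.06 (SE, limma adjusted p = 0.815). The probe is printed at 10 places, and the 8 copies used on each of arrays 1 and 2 gave ratios of -0.68 to -0.30 on array 1 and 0.26 to 0.61 on array 2. At probe 2, whose spot on array 1 was an outlier and left out, the levels were 12.07, 11.51 and 11.48 in females 2 to 4 and 11.61, 11.61 and 11.48 in males 2 to 4. The fit over these 3 arrays gave 0.06 ± 0.14 (SE, limma adjusted p = 0.862).

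**Figure D1:**
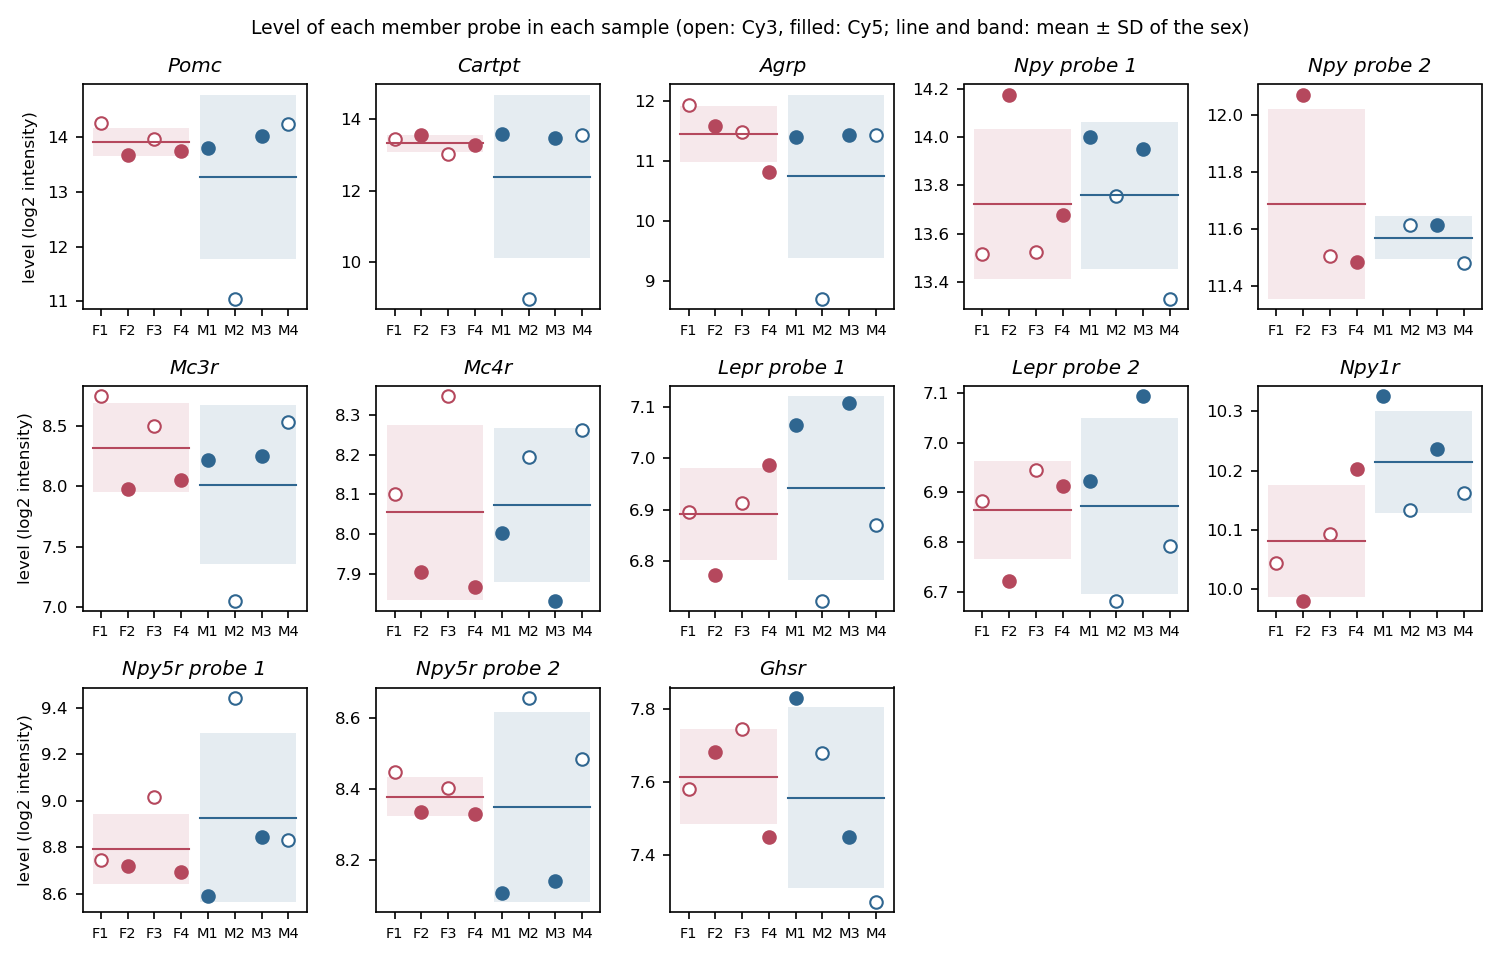
Log2 level of each of the 13 probes in the 8 samples, females 1 to 4 (F1 to F4) and males 1 to 4 (M1 to M4), with open points for Cy3 and filled points for Cy5. Lines and bands give the mean ± SD of each sex, and M2 is the lowest point for Pomc (11.04), Cartpt (8.98), Agrp (8.69) and Mc3r (7.05).

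Mc3r encodes a melanocortin receptor expressed in the hypothalamus. Females 1 to 4 had levels of 8.75, 7.98, 8.50 and 8.05 and males 1 to 4 had 8.22, 7.05, 8.25 and 8.53. Male replicate 2 was the lowest, below each of the other 7 samples by at least 0.92. Its spot mean exceeded the local background by 1.44 units, against 81.7 to 455 units in the other samples, and the authors' deposited value table is blank at this probe for male replicate 2. The log2 ratio on array 2 was 0.92 here and 4.19 as the scanner software computed it; the offset of 50 used here compresses ratios of dim spots. The ratios on arrays 1, 3 and 4 were 0.53, 0.26 and -0.48. The limma fit gave 0.31 ± 0.25 (SE, adjusted p = 0.633), and its estimate was -0.05 without replicate 2. The estimate over all 4 arrays moved with the processing. It was 0.72 with no background correction and 1.05 from the scanner's ratios (limma adjusted p = 0.609 and 0.618).

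Mc4r encodes the melanocortin receptor through which alpha-MSH lowers food intake, and its probe lies at chr18:63391440-63391499 of rn4. Females 1 to 4 measured 8.10, 7.91, 8.35 and 7.87, and males 1 to 4 measured 8.003, 8.20, 7.83 and 8.26. The sexes overlapped, and male replicate 2 lay within the range of the other males. The log2 ratios were 0.10, -0.29, 0.51 and -0.39 on arrays 1 to 4, with a limma estimate of -0.02 ± 0.10 (SE, adjusted p = 0.942). The probe was dim, at 55.0 to 321 units over local background. From the authors' value table the estimate was -0.27 ± 0.18 (SE, limma adjusted p = 0.629).

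Npy1r and Npy5r encode receptors for neuropeptide Y and lie close together on chromosome 16. Npy1r had levels of 10.05, 9.98, 10.09 and 10.20 in females 1 to 4 and 10.33, 10.13, 10.24 and 10.16 in males 1 to 4. The female was lower on arrays 1 to 3 and higher on array 4, and the limma estimate was -0.13 ± 0.07 (SE, unadjusted p = 0.138, adjusted p = 0.565). At Npy5r probe 1, the levels were 8.74, 8.72, 9.02 and 8.69 in females 1 to 4 and 8.59, 9.44, 8.84 and 8.83 in males 1 to 4. Male replicate 2 was the highest sample at this probe and at probe 2, where it measured 8.66 against 8.11 to 8.49 in the other males and 8.33 to 8.45 in the females. The limma estimates were -0.14 ± 0.12 at probe 1 and 0.03 ± 0.07 at probe 2 (SE, adjusted p = 0.646 and 0.86). Both estimates lay close to 0 without replicate 2, at 0.01 for probe 1 and 0.07 for probe 2.

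Lepr encodes the leptin receptor. Its 2 probes overlap on chromosome 5 and were dim, with signals above local background of -3.84 to 32.0 units at probe 1 and -6.73 to 29.9 units at probe 2. Levels at probe 1 were 6.90, 6.77, 6.91 and 6.99 in females 1 to 4 and 7.07, 6.72, 7.11 and 6.87 in males 1 to 4. Male replicate 2 was the lowest at both probes, with a signal below its local background. The limma estimates were -0.05 ± 0.06 and -0.01 ± 0.07 (SE, adjusted p = 0.742 and 0.966), and the offset compresses any difference at such signals. Ghsr, the ghrelin receptor gene, was also dim, at 39.9 to 153 units. Its levels were 7.58, 7.68, 7.75 and 7.45 in females 1 to 4 and 7.83, 7.68, 7.45 and 7.27 in males 1 to 4, with overlap, and the limma estimate was 0.06 ± 0.12 (SE, adjusted p = 0.84).

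**Figure D2:**
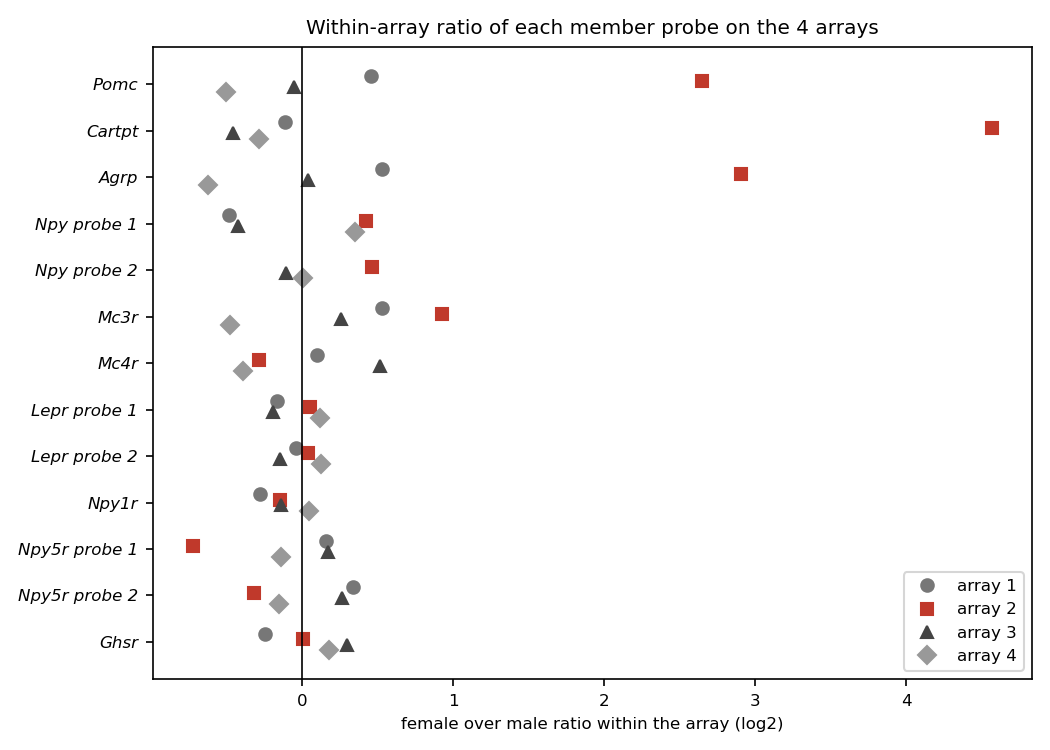
Female over male log2 ratio of each probe within each of the 4 arrays, with 1 marker shape per array and a line at 0. The array 2 squares lie at 2.65 for Pomc, 4.57 for Cartpt and 2.91 for Agrp, to the right of all other points.

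Across the 10 genes at their brightest probe, 5 had a fitted ratio above 0, against 56.2% of all genes. At an unadjusted limma p under 0.05 there were 0 of 10, against 8.51% of all genes (5.01% higher in females and 3.51% higher in males), and after Benjamini-Hochberg adjustment there were 0, against 0% of all genes, with a lowest adjusted p of 0.555 over all probes. The levels of the sexes overlapped for all 10 genes, whereas they did not overlap for 2.57% of all genes. No gene of the 10 kept 1 sign on all 4 arrays, which 5.06% of all genes did above 0 and 5.56% below 0. Leaving out replicate 4 moved 4 of the 10 past the adjusted threshold of limma, with 6.78% of all probes past it, and 5 of the 10 past an unadjusted p under 0.05, with 29.6% of all probes. Leaving out replicate 2 put 1 of the 10, Cartpt, past an unadjusted p under 0.05, with 7.99% of all probes. The log2 ratios without replicate 4 were 1.42 for Pomc, 2.14 for Cartpt, 1.59 for Agrp and 0.66 for Mc3r. Without replicate 4, array 2 is the single array with the female in Cy5, so its ratio enters with no replicate. The same holds for array 4 in the fits without replicate 2. In both fits the SE and p-values do not cover the spread of that single array. The plain mean ratios over arrays 1, 3 and 4, with no dye term, were -0.04 for Pomc, -0.29 for Cartpt, -0.02 for Agrp and 0.10 for Mc3r (SD 0.48, 0.17, 0.58 and 0.52).

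**Figure D3:**
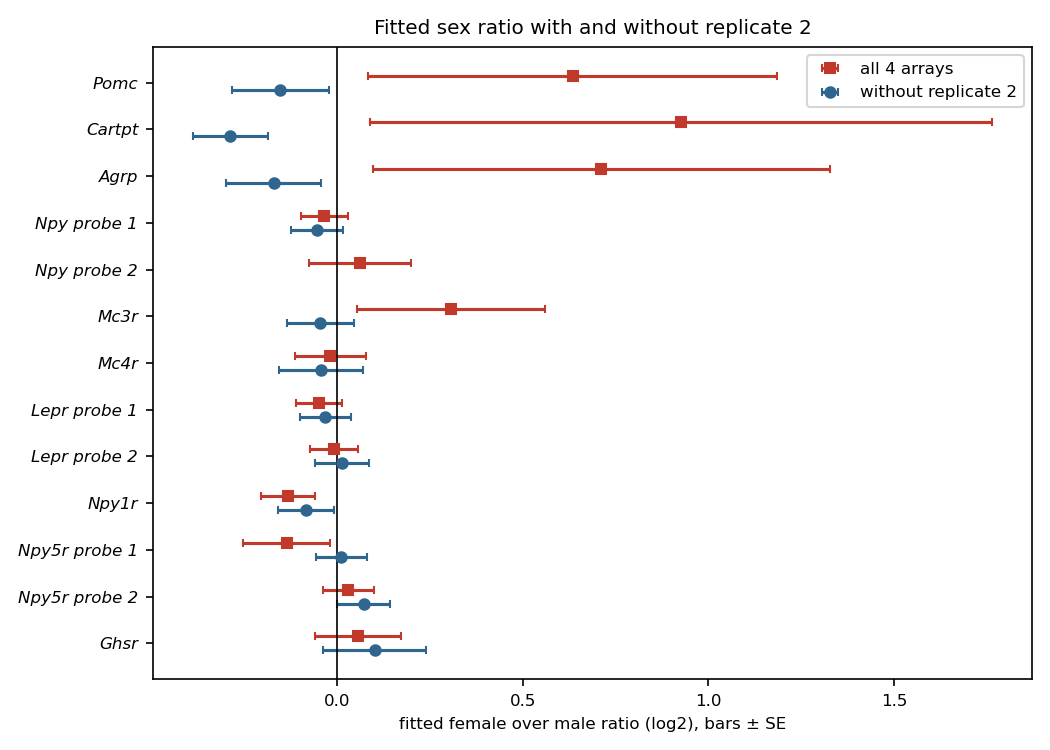
Fitted female over male log2 ratio with its SE (bars) for each probe, from all 4 arrays (squares) and without replicate 2 (circles). Pomc moved from 0.64 to -0.15, Cartpt from 0.93 to -0.29 and Agrp from 0.71 to -0.17. Npy probe 2 has no circle because too few arrays were left. The bars of the circles do not cover the spread of array 4, the single array there with the female in Cy5.

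Read across samples instead of sexes, the 10 genes divided by their level in male replicate 2. Pomc, Cartpt and Agrp lay below each of the other 7 samples by over 1 on the log2 scale, against 1.39% of all genes, and the same 3 by over 2, against 0.214%. Cartpt alone did so by over 3, against 0.0483% of all genes. Male replicate 2 was also the lowest male past Dixon's limit for an outlying value for Pomc, Cartpt and Agrp, against 2.74% of all genes. The gaps were 4.04 for Cartpt, 2.65 for Pomc and 2.12 for Agrp, at ranks 3, 11 and 27 of 14487 genes. Avp, Pmch, Calcr, Npvf, Trh and Oxt were among the genes with gaps above that of Pomc. Mc3r was also lowest in male replicate 2, but its gap of 0.92 fell short of 1. Its signal there was 1.44 units over local background, and the scanner software gave a log2 ratio of 4.19 on array 2. Lepr probe 1 had a signal of -3.84 units there. The offset of 50 compresses gaps at such dim spots, so these limits cannot place Mc3r and Lepr. At 0 of the 10 genes was male replicate 2 higher than all other samples by over 1, against 2.33% of all genes. The authors' deposited value table is a separate processing of the same arrays. There the log2 level in male replicate 2 less that in male replicate 4 was -3.29 for Pomc, -5.06 for Cartpt, -3.38 for Agrp and 0.28 for Npy.

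Pomc is also the main transcript of pituitary corticotrophs and melanotrophs, so pituitary markers were set beside it. Their summed level over 10 measured genes was 12580 in male replicate 2, 32860 to 160200 in the females and 49780 to 87940 in the other males, and 1 of the 10 was lower in male replicate 2 than in all other samples by over 1 on the log2 scale. The highest sum was in female replicate 2. That sum mostly follows its brightest genes, Cga and Tshb, at 16.80 and 15.35 in female replicate 2. Tbx19 of the same list measured 9.12 in male replicate 2 and 9.93 to 10.51 in the other samples. Gh1, Fshb and Pou1f1 of the list had levels of 6.668, 6.708 and 6.979 in male replicate 2. They were not lowest there, but the lowest levels elsewhere were close, at 6.663, 6.609 and 6.901. The part of pituitary RNA in the Pomc level was not tested.

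**Figure D4:**
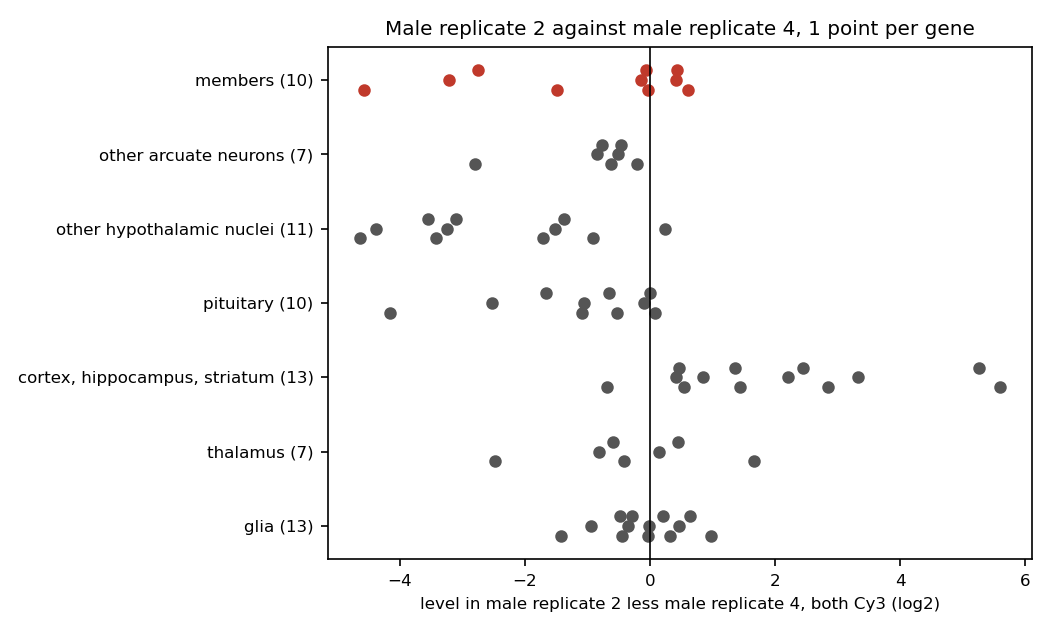
Log2 level in male replicate 2 less that in male replicate 4, both labelled with Cy3, with 1 point per gene for the 10 genes (red) and for marker lists (grey, number of genes in brackets). The 10 genes run from -4.58 to 0.61, markers of other hypothalamic nuclei from -4.64 to 0.23 and markers of cortex, hippocampus and striatum from -0.69 to 5.60.

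Genes that act with these peptides were described from 3 lists. Of 17 genes of melanocortin and NPY processing and signalling measured in all 8 samples, 6 had a ratio above 0 and 11 below. Their median was -0.02 against 0.02 over all genes, of which 56.2% had a ratio above 0. Pcsk1 of the same list had no value on array 1 and was not counted. Its log2 ratio over the other arrays was 0.09 ± 0.11 (SE, limma adjusted p = 0.73). Dpp4, a peptidase that cleaves neuropeptide Y, was the 1 gene of this list at an unadjusted limma p under 0.05, which 8.51% of all genes reached (log2 ratio 0.30 ± 0.06 (SE), limma adjusted p = 0.555), with the female higher on all 4 arrays. Pcsk2, a convertase that cuts the Pomc precursor, had a ratio of -0.47 ± 0.20 (limma adjusted p = 0.555) and its highest level, 11.70, in male replicate 2. Of 25 measured genes of leptin and insulin signalling, 12 had a ratio above 0 and 13 below. Prkaa1, a catalytic subunit of AMP-activated kinase, had -0.66 ± 0.15 (SE, limma adjusted p = 0.555), and its regulatory subunit gene Prkab1 had 0.23 ± 0.08 (SE, limma adjusted p = 0.555). These were the 2 of 25 under 0.05 before adjustment, a share near the 8.51% of all genes. The levels of Prkaa1 did not overlap, at 7.33 to 7.51 in females and 7.62 to 8.46 in males, as for 2.57% of all genes. Of 10 measured transcription factors of arcuate neurons, 8 had a ratio above 0 and 2 below, and 0 had an unadjusted limma p under 0.05, against 56.2% of all genes above 0 and 8.51% under 0.05. Nkx2-1, needed for the ventral hypothalamus to form, measured 8.87 in male replicate 2 and 11.12 to 11.48 in the other samples. No gene of the 3 lists passed after adjustment over all probes.

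The planned relation between pairs of peptide genes was taken over all 8 samples, with the mean of each dye removed. Pearson r was 0.99 for Pomc with Cartpt and -0.34 for Agrp with Npy (exact permutation p = 0.000744 and 0.416). The permutation treats samples as exchangeable, although samples shared arrays in pairs. The removed Cy3 mean included male replicate 2, so its low values also shifted the other Cy3 samples. With no dye mean removed, Pomc with Cartpt gave a Pearson r of 0.97 (exact permutation p = 0.0584). Spearman rho was then 0.31 (exact permutation p = 0.462), and Pearson r without male replicate 2 and female replicate 1 was 0.053. Since male replicate 2 lay far from the rest, the relation was also taken over the 7 other samples, a choice made after seeing the data. Pomc with Cartpt gave a Pearson r of 0.60 (exact permutation p = 0.165, two-sided) and a Spearman rho of 0.54 (exact permutation p = 0.236). Agrp with Npy gave a Pearson r of 0.85 (exact permutation p = 0.0161, Benjamini-Hochberg 0.0322 over 2 pairs) and a Spearman rho of 0.68 (exact permutation p = 0.11). Without female 4 and male 4, which shared array 4, the Agrp and Npy value fell to 0.36 (exact permutation p = 0.517), so the relation rests on those samples. For Pomc with Cartpt, r without the farthest pair of samples was 0.54 (exact permutation p = 0.392).

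The genes most like each peptide were ranked over all 8 samples, with the dye mean removed, as a description. Closest to Pomc were Gpx3, Plcxd3 and Gpr50 (r = 0.996, 0.995 and 0.994), whose r over the 7 samples without male replicate 2 was 0.878, 0.632 and 0.587. Closest to Cartpt were Tmem117, Plcxd3 and P2rx2 (r = 0.998, 0.997 and 0.996, and 0.852, 0.86 and 0.707 without that sample). Closest to Agrp were Micall2, Ciapin1 and RGD1308093 (r = 0.998, 0.994 and 0.993, and 0.979, 0.954 and 0.965 without it). Closest to Npy were Tm7sf4, Srgap2 and RGD1563302 (r = 0.991, 0.983 and 0.977, and 0.988, 0.978 and 0.968 without it). The samples share arrays and dyes, and the removed dye mean includes male replicate 2.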

How the data were processed

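RNA of 8 rat hypothalami was labelled and hybridised in pairs to 4 two-colour Agilent arrays. The deposited files hold spot intensities and flags as scanned; per the submitters' processing notes the software was Agilent Feature Extraction, version 10.7.3.1. The deposited log10 ratios (Cy5 over Cy3) came from the same software, per the file headers. The authors' deposited value table holds log2 values centred on a median of 0 per sample; how it was made is not given in the sources used here.

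Mean signals were background-corrected (normexp, offset 50) and loess-normalized within arrays in limma 3.58.1 (R 4.3.3). Outlier spots were left out, spots of a probe were averaged, and probes had to have a share over 0.5 of their spots well above background in every female or in every male. Female over male ratios were fitted with a sex and a dye term (lmFit, eBayes), with Benjamini-Hochberg adjustment over 21995 probes at a threshold of 0.05. Levels used Aquantile normalization. The brightest probe stood for a gene, and 17328 probes were named through their accession in RefSeq. Figures were drawn with matplotlib 3.10.9. The fit was tested on simulated data.

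Samples with the same number shared an array, so the ratio is the paired value; deviations within pairs correlated at 0.61, 0.68, 0.47 and -0.08. Whether the animals were independent in other ways is not stated beyond separate samples. The genes named are the 10 members, the 3 genes most correlated with each peptide and up to 4 genes of smallest p in each pathway list. Avp, Pmch, Calcr, Npvf, Trh, Oxt, Vip, Neurod6, Rgs9, Ttr, Crym, Dio2, Gpr50 (as a marker), Vim, Nes, Adm, Rax, Tac3, Kiss1, Cga, Tshb, Tbx19, Gh1, Fshb, Pou1f1 and Pcsk1 were named after their values had been seen. The members and lists were chosen with earlier results of these data known. One list entry was removed after its values had been seen: Ttf1 had been listed as an older name of Nkx2-1, but in RefSeq it is a different gene. With it, the transcription factor list had 11 measured genes, 8 above and 3 below 0, and a median of 0.03 in place of 0.05. Alternatives covered the dye term, background, normalization, filter, prior, outlier spots and leaving out each replicate; leaving out male replicate 2 alone was added after seeing the data.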

Additional observations from a re-analysis of the deposited data

Results flagged for a closer look

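Among 24 groups of 4 samples tested for a single sample far from the rest, 4 passed Dixon's limit for 4 samples, one that chance passes in about 1 in 20 groups. In the males, male replicate 2 was far below the others for Pomc (gap over range 0.86), Cartpt (0.981) and Agrp (0.985), and 2.74% of all genes had male replicate 2 as the lowest male past the same limit. In the females, female replicate 3 was far above the others at Npy5r probe 1 (0.838), with a level of 9.02 against 8.69 to 8.74.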

How the results depend on the processing

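With all 4 arrays, 0 probes passed after adjustment and 0 of the 10 genes had an unadjusted limma p under 0.05 under every change of dye term, background, normalization, filter, outlier handling or prior, and in the separate-channel fit with no replicate block, where Pomc was 0.64 ± 0.68. Leaving out 1 replicate gave 0 to 1479 probes past the threshold and 0 to 5 of the 10 genes at an unadjusted p under 0.05; both highest values came without replicate 4, and 1 gene, Cartpt, came without replicate 2. Without replicate 2 the log2 ratio turned to -0.15 for Pomc, -0.29 for Cartpt, -0.17 for Agrp, -0.045 for Mc3r, 0.011 for Npy5r probe 1 and 0.013 for Lepr probe 2. With male replicate 2 alone left out, an alternative chosen after seeing the data, it was -0.17 for Pomc, -0.20 for Cartpt, -0.024 for Agrp, -0.095 for Mc3r, 0.047 for Npy probe 1 and 0.011 for Npy5r probe 1. Ratios near 0 also changed sign. Leaving out 1 replicate at a time gave -0.122 to 0.085 for Mc4r, -0.08 to 0.194 for Ghsr, -0.034 to 0.019 for Lepr probe 2, -0.011 to 0.071 for Npy5r probe 2 and -0.282 to 0.011 for Npy5r probe 1. Without replicate 4, Pomc, Cartpt, Agrp and Mc3r were at 1.422, 2.141, 1.594 and 0.657. Mc3r was 0.723 with no background correction and 1.053 from the scanner's ratio. Median centring gave 0.023 and 0.08 for Lepr probes 1 and 2 and -0.014 for Npy5r probe 2, the scanner's ratio gave 0.136, 0.18 and -0.051, and Lepr probe 2 was 0.038 with no background correction. The authors' table gave -0.27 for Mc3r, where male replicate 2 is blank, and -0.17 for Npy5r probe 2. The mean of the Npy probes was 0.013. Over all 8 samples r was 0.99 for Pomc with Cartpt (exact permutation p = 0.000744), 0.97 with no dye mean removed (exact permutation p = 0.0584) and 0.60 without male replicate 2. For Agrp with Npy it was -0.34 (exact permutation p = 0.416), then 0.36 without the farthest pair of samples and 0.85 without male replicate 2. The cause of these changes was not tested. Dim signals limit Lepr, Ghsr, Mc3r and Mc4r.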

Other observations

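Ttr, the transthyretin gene of the choroid plexus, had a log2 level of 16.49 in male replicate 4, 13.79 in male replicate 2 and 10.92 to 12.33 in the other samples. The 7 measured markers of tanycytes and median eminence went both ways in male replicate 2. Crym measured 16.25 in male replicate 2 and 13.55 to 14.29 elsewhere, and Dio2 was also highest there, at 7.61 against 6.94 to 7.33. Gpr50 of the same list measured 7.28 there and 9.22 to 9.73 elsewhere, and Vim, Nes, Adm and Rax were also lowest in male replicate 2. Among markers of other arcuate neurons, Tac3 and Kiss1 had limma log2 ratios of 0.49 and 0.48 (adjusted p = 0.555 for both). Both were under an unadjusted p of 0.05, as were 8.51% of all genes, and the lowest level of each was in male replicate 2.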
